A study of Mus musculus with 8 samples.

Results

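Fatty acid oxidation and the targets of PPAR-alpha were followed through 34 genes in mouse proximal tubule cells, cultured from kidney and given GW4064. A gene was a member if an accession on the array mapped to its symbol on a list of 34 symbols, and all 34 were found among 20659 named genes, through 43 probes. The list was divided by where the protein works into 20 mitochondrial, 7 peroxisomal and 3 microsomal members and 4 members with other places. Each member was counted in 1 place, although Crat is also found in peroxisomes, Eci2 also in mitochondria and Slc27a2 also in the endoplasmic reticulum. The cells were cultured from renal cortex of male C57/BJ mice aged 6 weeks. The plated pellet was mostly renal tubules, per the labels' protocols, and was grown until confluent. In serum-free DMEM, 4 samples received the vehicle DMSO and 4 received 1 uM GW4064, a synthetic agonist of the bile acid receptor FXR, each for 24 h. The labels name no genotype beyond the strain. They also leave unstated which animal or culture each sample came from, so the p-values reflect variation among these 8 samples alone, part of which may be technical.

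Proximal tubule cells draw most of their ATP from fatty acids. Long-chain acids are activated to acyl-CoA, carried into mitochondria by the carnitine shuttle and shortened there by a repeating cycle of dehydrogenation, hydration, a second dehydrogenation and thiolysis. Peroxisomes shorten very long chains by a parallel cycle, and microsomal cytochromes of the CYP4 family hydroxylate the far, omega, end of the chain. The nuclear receptor PPAR-alpha, paired with RXR, binds fatty acids and activates many genes of all these routes. FXR is known to induce the PPAR-alpha gene in human liver cells.

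Levels are given on a log2 scale relative to the 75th percentile of each array, so they compare samples for 1 gene and not genes with each other. A gene passed when its adjusted p was under 0.05 in limma with Benjamini-Hochberg adjustment over all 14476 genes tested. The ± beside a log2 fold change is the standard error of that fit, with 4 arrays per group. In these bulk samples, fewer cells of a type and less RNA per cell cannot be told apart. The arrays lay on 2 slides of 4, with 2 samples of each group on each slide, and DMSO always took the first places, so place and treatment cannot be told apart.

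Of the 34 members, 32 were tested and 2, Cyp4a14 and Fabp1, were too dim. All 32 were well above background on all 8 arrays. With GW4064, 7 members rose (Ehhadh, Acaa1b, Pex11a, Plin2, Hadh, Pdk4 and Acaa1a) and 3 fell (Cyp4b1, Acsl1 and Hadhb), while 22 did not pass. The members' share called was 31.2%, beside 20.8% of all genes tested. Of all genes tested, 11.8% were higher and 8.95% lower. Each gene was represented by its brightest kept probe. On those probes, only Cyp4b1 moved by at least 1.3-fold, a size that 9.79% of all genes reached, and no tested member reached 2-fold. One of the dimmer probes of Cyp4a10 rose 1.82-fold and is described with that gene. The median log2 fold change was 0.03 over the members and 0.01 over all genes, and the median size without sign was 0.13 against 0.10. Of the 32, 17 had a log2 fold change above 0 (53.1%), beside 54.2% of all genes. The groups did not overlap for 9 members that were higher and 4 that were lower, beside 26.2% of all genes.

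Among peroxisomal members 4 of 7 rose and 0 fell, with a median log2 fold change of 0.15. Of the 20 mitochondrial members, 2 rose and 1 fell, with a median of -0.00079. Of the 2 tested microsomal members 1 fell. These counts, and those by step below, are small and are read against 11.8% of all genes higher and 8.95% lower. The rises of Acaa1a and Acaa1b may not be separate, because a probe for one may also catch the other's transcript. The mean level of the 7 peroxisomal members lay between 2.05 and 2.14 on the DMSO arrays and between 2.21 and 2.34 on the GW4064 arrays, with no overlap. The mean of the 20 mitochondrial members lay between 1.87 and 1.93 with DMSO and between 1.86 and 1.90 with GW4064, and these overlapped. No difference between places was tested.

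**Figure D1:**
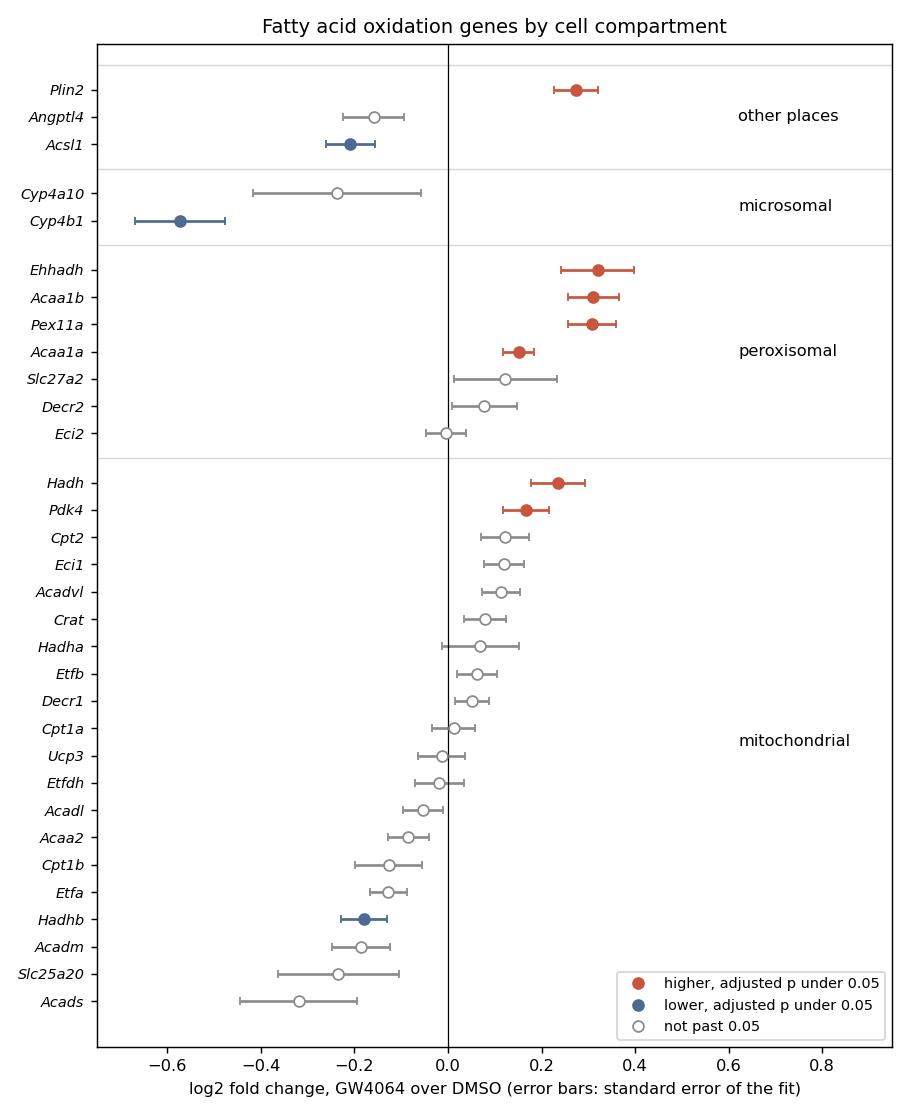
Log2 fold change with GW4064 over DMSO for the 32 tested members, grouped by place; bars are standard errors of the limma fit, 4 arrays per group, and filled points passed an adjusted p of 0.05. The 4 peroxisomal rises lie between 0.15 and 0.32, the mitochondrial points spread on both sides of 0, and Cyp4b1 is farthest from 0 at -0.57.

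Marker genes of cell types were read from the same arrays. Of 18 tested proximal tubule markers 14 rose and 1, Kap, fell, and the mean of that list lay between 1.13 and 1.52 on DMSO arrays and between 2.07 and 2.35 on GW4064 arrays. Among markers of other cells, 3 of 6 endothelial, 3 of 6 tested leukocyte and 1 of 6 fibroblast genes rose. Their list means ran from -1.60 to -1.38 with DMSO and from -1.15 to -1.09 with GW4064 for endothelium, from -2.01 to -1.56 and -1.76 to -1.60 for leukocytes, and from -1.49 to -1.29 and -1.33 to -1.14 for fibroblasts. The leukocyte mean of -1.56 was that of DMSO replicate 4, and the other DMSO arrays lay from -2.01 to -1.91. In DMSO replicate 4 the leukocyte gene Ptprc was at -1.53. It lay from -4.10 to -4.01 on the other DMSO arrays and from -4.39 to -4.18 with GW4064. Of 5 tested markers of other nephron segments 2 fell (Umod and Slc12a3) and Calb1 was never above background, with means from -2.45 to -2.40 and from -2.75 to -2.45. The adipocyte markers Adipoq, Plin1 and Lep and the striated muscle markers Ckm, Actn2 and Myh4 were not well above background on any array. Of the markers that could be tested in these 2 lists, Retn of adipocytes and Mb of muscle did not pass, and Actc1 of muscle rose; the muscle list mean ran from -4.40 to -4.21 with DMSO and from -4.32 to -3.95 with GW4064. Whether the cell makeup or the state of the tubule cells had a part in the members' changes was not tested. The 75th percentile of the signal was between 1203 and 1900 per array, and 61.4% to 65.7% of probes were well above background.

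All 3 members of the peroxisomal cycle rose. Ehhadh, the bifunctional enzyme that hydrates and then dehydrogenates enoyl-CoA in peroxisomes and a standard PPAR-alpha target, had levels of -1.03, -0.93, -1.20 and -0.91 with DMSO and -0.59, -0.68, -0.84 and -0.67 with GW4064. Every GW4064 array lay above every DMSO array, and replicate 3 was the lowest in both groups. It rose by 0.32 ± 0.08 on the log2 scale, or 1.25-fold (adjusted p = 0.0225 in limma), with 0.34 on slide 1 and 0.30 on slide 2. Without DMSO replicate 1, or without GW4064 replicate 1, 2 or 4, it no longer passed (highest adjusted p = 0.0627), nor with no filter on dim probes (0.0503).

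Acaa1a and Acaa1b encode near-identical peroxisomal 3-ketoacyl-CoA thiolases, the enzymes of the last step, and a probe for one may also catch the other's transcript. Acaa1a had levels of 5.07, 5.06, 5.03 and 5.04 with DMSO and 5.18, 5.24, 5.17 and 5.22 with GW4064. Its arrays were the tightest of the called members, and the groups were apart. The rise was 0.15 ± 0.03 on the log2 scale, 1.11-fold (adjusted p = 0.0145), with 0.15 on slide 1 and 0.16 on slide 2, and it missed the threshold with median centring (0.0655). Acaa1b had levels of 1.56, 1.45, 1.57 and 1.54 with DMSO and 1.77, 1.96, 1.76 and 1.86 with GW4064, and here GW4064 replicate 2 was the highest. It rose by 0.31 ± 0.05, 1.24-fold (adjusted p = 0.00556), with 0.36 on slide 1 and 0.26 on slide 2.

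Pex11a, a membrane protein of peroxisome division that PPAR-alpha agonists induce, had levels of 1.56, 1.64, 1.66 and 1.65 with DMSO and 2.01, 2.00, 1.92 and 1.82 with GW4064. The groups were apart, and GW4064 replicate 4 lay closest to the DMSO arrays. It rose by 0.31 ± 0.05, 1.24-fold (adjusted p = 0.00438), with 0.40 on slide 1 and 0.21 on slide 2, and it was the only rise that also passed when slide 1 was fitted alone. The other 3 peroxisomal members did not pass. Their log2 fold changes were 0.12 ± 0.11 for Slc27a2, an activating enzyme for very long chains, 0.08 ± 0.07 for Decr2, a reductase for unsaturated acids, and -0.004 ± 0.04 for the isomerase Eci2. The groups of all 3 overlapped.

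To show what the regulatory sequence next to these genes looks like, promoters were read as the 250 bases before the RefSeq start on mouse assembly GRCm38.p6. They were searched on both strands for the nuclear receptor half-site AGGTCA, which reads as TGACCT when it lies on the other strand, and for its pairs with 1 base between. One pair was the direct repeat AGGTCANAGGTCA, which PPAR-alpha binds with RXR, and the other the inverted repeat AGGTCANTGACCT, which FXR binds with RXR. Each pair holds half-sites, so its windows are among those counted for the half-site. The promoter table held 28 windows for 27 members. A half-site was in 7 of the 28 windows (25.0%), beside 14.0% of 32851 windows of all genes. The direct repeat was in 0 member windows (0.0335% of all windows) and the inverted repeat in 0 (0.00609%). Only exact matches within the 250 bases were counted. A site with a changed base, or one farther from the start, would be missed, so these counts do not show that a member lacks such a site. Of the called members only Plin2 had a half-site in its window, at 218 bases before the start. The windows of the called members with the largest rise and fall and of Pdk4 follow, Ehhadh at chr16:21787835-21788084, reverse strand, Cyp4b1 at chr4:115647722-115647971, reverse strand, and Pdk4 at chr6:5496279-5496528, reverse strand. None of the 3 has capitals, because none held the half-site.
Ehhadh: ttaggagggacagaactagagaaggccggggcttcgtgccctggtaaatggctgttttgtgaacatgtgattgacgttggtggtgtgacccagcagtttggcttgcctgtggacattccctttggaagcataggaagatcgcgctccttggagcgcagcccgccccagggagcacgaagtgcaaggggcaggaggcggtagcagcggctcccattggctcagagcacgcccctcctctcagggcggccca
Cyp4b1: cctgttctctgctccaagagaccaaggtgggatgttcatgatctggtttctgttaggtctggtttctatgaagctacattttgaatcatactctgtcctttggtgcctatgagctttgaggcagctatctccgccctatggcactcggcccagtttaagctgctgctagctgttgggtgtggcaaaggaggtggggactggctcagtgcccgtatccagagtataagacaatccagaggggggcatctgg
Pdk4: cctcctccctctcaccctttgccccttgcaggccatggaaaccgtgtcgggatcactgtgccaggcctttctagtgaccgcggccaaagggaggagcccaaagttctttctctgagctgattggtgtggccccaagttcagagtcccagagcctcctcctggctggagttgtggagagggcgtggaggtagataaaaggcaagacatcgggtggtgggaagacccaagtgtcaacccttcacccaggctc

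Of the 4 mitochondrial members for the steps from hydration to thiolysis, 1 rose and 1 fell. Hadh, the 3-hydroxyacyl-CoA dehydrogenase for short and medium chains, had levels of 2.85, 2.82, 2.72 and 2.84 with DMSO and 3.06, 3.07, 2.90 and 3.14 with GW4064. The groups did not overlap, and replicate 3 was again the lowest in both. It rose by 0.24 ± 0.06, 1.18-fold (adjusted p = 0.0223), with 0.23 on slide 1 and 0.24 on slide 2. It no longer passed without DMSO replicate 2 or 3, or without GW4064 replicate 1 or 2 (highest adjusted p = 0.0603).

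Hadhb encodes the thiolase subunit of the trifunctional protein, and Hadha the subunit that carries the hydratase and dehydrogenase of long chains. Hadhb had levels of 3.14, 3.17, 3.09 and 3.06 with DMSO and 2.89, 2.95, 2.86 and 3.05 with GW4064. Every GW4064 array was lower than every DMSO array, though GW4064 replicate 4 lay just under the lowest of them. It fell by 0.18 ± 0.05 on the log2 scale, 1.13-fold (adjusted p = 0.0368), with -0.24 on slide 1 and -0.12 on slide 2. The call remained when GW4064 replicate 4 was left out, ended when any of the other 7 arrays was left out (highest adjusted p = 0.0993), and ended with slide as a block (adjusted p = 0.0517) and with no filter on dim probes (0.0741). Hadha had levels of 0.49, 0.20, 0.42 and 0.13 with DMSO and 0.31, 0.44, 0.39 and 0.37 with GW4064, with overlapping groups and a log2 fold change of 0.07 ± 0.08 (adjusted p = 0.593). The difference between the responses of the pair was not tested.

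Hadha and Hadhb lie head to head on chromosome 5, with 272 bases between their first bases, so that their promoter windows share 228 bases. The window of Hadhb, chosen for display after the values were seen, is at chr5:30155003-30155252, forward strand, and holds no half-site.
Hadhb: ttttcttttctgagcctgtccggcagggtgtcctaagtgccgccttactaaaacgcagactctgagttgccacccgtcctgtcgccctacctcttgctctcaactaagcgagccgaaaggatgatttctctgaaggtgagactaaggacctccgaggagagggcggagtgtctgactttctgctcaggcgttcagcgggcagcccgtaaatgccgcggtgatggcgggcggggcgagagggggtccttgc

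Pdk4, the kinase that switches off pyruvate dehydrogenase and so favours fat over glucose, is among the best known PPAR-alpha targets. Its levels were -0.52, -0.71, -0.60 and -0.58 with DMSO and -0.49, -0.42, -0.39 and -0.44 with GW4064. The groups did not overlap, but DMSO replicate 1 and GW4064 replicate 1 lay close together. It rose by 0.17 ± 0.05, 1.12-fold (adjusted p = 0.0452), with 0.16 on slide 1 and 0.17 on slide 2. It passed when DMSO replicate 1 was left out and did not when any of the other 7 arrays was (highest adjusted p = 0.105). It also missed the threshold with slide as a block (0.0584), with quantile normalization (0.0622), with median centring (0.115), with no filter on dim probes (0.0878) and on the authors' deposited table (0.0667).

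**Figure D2:**
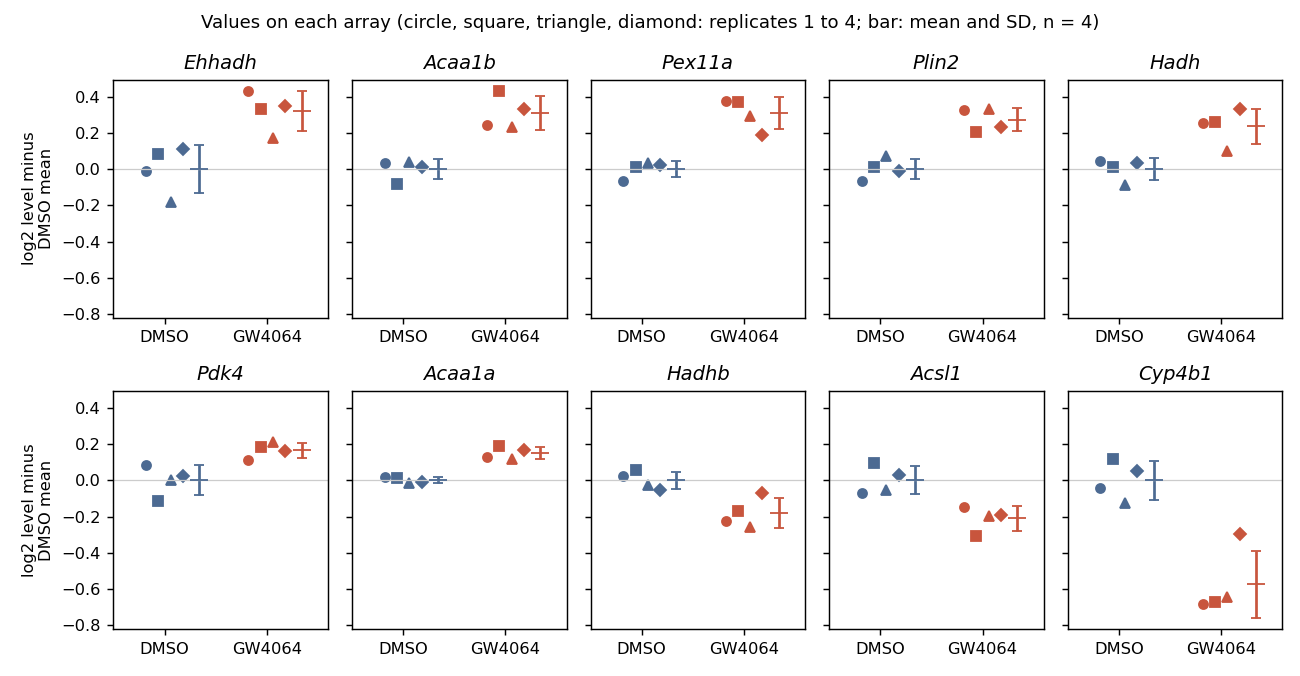
Level of each of the 10 called members on each array, as log2 minus the gene's mean over the 4 DMSO arrays; symbols are replicates 1 to 4, and the bar beside each group is its mean and SD (n = 4). In every panel the groups do not overlap, most narrowly for Hadhb and Pdk4, and in Cyp4b1 GW4064 replicate 4 lies nearer the DMSO arrays than the other 3.

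The carnitine shuttle, which admits long chains to mitochondria, had 0 of 5 members past the threshold. Cpt1a, the gatekeeper enzyme of the shuttle and a textbook PPAR-alpha target, had levels of 2.31, 2.28, 2.41 and 2.37 with DMSO and 2.44, 2.37, 2.33 and 2.29 with GW4064. The groups overlapped, the log2 fold change was 0.01 ± 0.05 (adjusted p = 0.884), and its second probe gave 0.03 ± 0.06. It took different signs on the slides, with 0.11 on slide 1 and -0.08 on slide 2. Cpt2, the inner-membrane partner, had a log2 fold change of 0.12 ± 0.05 (adjusted p = 0.135) with groups that did not overlap. Crat, a carnitine acetyltransferase, had 0.08 ± 0.05, Slc25a20, the acylcarnitine carrier, -0.23 ± 0.13, and Cpt1b, the muscle form, -0.13 ± 0.07. The second probe of Cpt1b gave -0.37 ± 0.12 and did not pass either (adjusted p = 0.0809 over all kept probes).

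None of the 4 acyl-CoA dehydrogenases, which start each turn of the cycle, passed. Acadm, the medium-chain enzyme, had levels of 3.64, 3.74, 3.55 and 3.75 with DMSO and 3.49, 3.45, 3.40 and 3.59 with GW4064. The groups overlapped in part, because DMSO replicate 3 lay below GW4064 replicate 4. Its log2 fold change was -0.19 ± 0.06 (adjusted p = 0.0669), with -0.22 on slide 1 and -0.15 on slide 2. It passed when DMSO replicate 3 or GW4064 replicate 4 was left out, and with array weights (0.0268) or a trended robust variance prior (0.0292). Acads, the short-chain enzyme, had -0.32 ± 0.13 (adjusted p = 0.112) and the widest spread of the 4, from -0.17 to 0.46 on the DMSO arrays against -0.23 to -0.15 with GW4064; it passed only without DMSO replicate 4 among the arrays left out. Acadvl, for very long chains, had 0.11 ± 0.04 and groups that did not overlap, and Acadl, for long chains, -0.05 ± 0.04.

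The electrons of that step pass to Etfa and Etfb, the subunits of electron transfer flavoprotein, and from there to Etfdh. Etfa had levels between 3.61 and 3.73 with DMSO and between 3.53 and 3.56 with GW4064, without overlap, and a log2 fold change of -0.13 ± 0.04 (adjusted p = 0.0573). It passed with array weights (0.0281) and with the trended robust prior (0.0297). Etfb had 0.06 ± 0.04 and Etfdh -0.02 ± 0.05, both with overlapping groups. The remaining mitochondrial members also did not pass. They were the thiolase Acaa2 (-0.08 ± 0.04), the reductase Decr1 (0.05 ± 0.04), the isomerase Eci1 (0.12 ± 0.04) and the uncoupling protein Ucp3 (-0.01 ± 0.05). The tested Ucp3 probe had levels from 0.95 to 1.14. Its other probe, between -8.42 and -6.53, was not well above background on any array. Which of them reports the Ucp3 transcript was not tested. Eci1 passed with array weights and with the trended robust prior (adjusted p = 0.0481 with each).

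Among the omega-hydroxylases of the endoplasmic reticulum, Cyp4b1 showed the largest change of the 32 tested members when each was read from its brightest probe. Its levels were 0.80, 0.96, 0.72 and 0.90 with DMSO and 0.16, 0.17, 0.20 and 0.55 with GW4064. All GW4064 arrays were lower than all DMSO arrays, with 3 of them close together and replicate 4 well above those 3. It fell by 0.57 ± 0.10 on the log2 scale, 1.49-fold (adjusted p = 0.00437), with -0.72 on slide 1 and -0.43 on slide 2. It was the only fall that also passed when slide 1 was fitted alone, and it passed with any single array left out.

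Cyp4a14 was not well above background on any array, with levels between -8.38 and -7.14, and was not tested. Cyp4a10, a widely used marker of PPAR-alpha activity in mice, was measured by 3 probes that did not go the same way, the only such case among 7 members with several kept probes. Its brightest probe had levels of -1.38, -1.11, -1.98 and -1.46 with DMSO and -1.69, -1.76, -1.96 and -1.47 with GW4064. The groups overlapped, DMSO replicate 3 was the lowest array of all, and the log2 fold change was -0.24 ± 0.18 (adjusted p = 0.393), with -0.48 on slide 1 and 0.01 on slide 2. A second probe (A_55_P2011111) had -0.21 ± 0.25 (adjusted p = 0.622 over all kept probes). The third probe (A_55_P2092030) had levels of -2.92, -2.87, -3.09 and -3.09 with DMSO and -2.18, -2.18, -2.12 and -2.04 with GW4064. Here the groups were far apart, and it rose by 0.86 ± 0.06, 1.82-fold (adjusted p = 0.00011 over all kept probes, of which 15.4% were called).

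Probes for other Cyp4a genes, whose transcripts are alike enough that a probe may catch several, also fell on both sides of the threshold. Single probes for Cyp4a12a and Cyp4a12b rose by 0.94 ± 0.07 and 0.92 ± 0.04. Cyp4a31 had 1 probe that rose by 0.89 ± 0.07, from between -2.65 and -2.45 with DMSO to between -1.77 and -1.49 with GW4064. Its other 2 kept probes had 0.11 ± 0.20 and -0.28 ± 0.18 and did not pass. The first of these was dim, well above background on 1 of 4 DMSO and 3 of 4 GW4064 arrays. The last of these had -1.18, -0.98, -1.80 and -1.25 with DMSO and -1.47, -1.61, -1.89 and -1.36 with GW4064, and, like the first Cyp4a10 probe, had its highest level in DMSO replicate 2 and its DMSO low in replicate 3. The 4 probes that rose did so by 0.86 to 0.94, and the 4 that did not pass had log2 fold changes from -0.28 to 0.11. The direction of Cyp4a10 depended on the probe, and which transcript each probe reports was not tested.

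**Figure D3:**
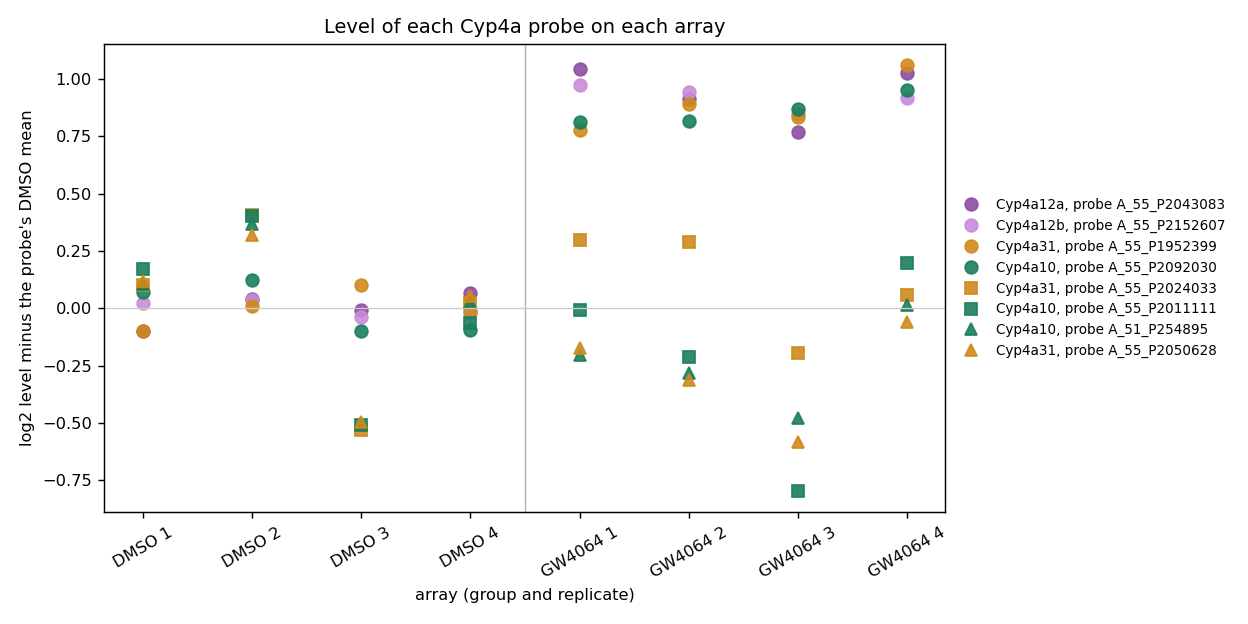
Level of the 8 kept Cyp4a probes on each array, as log2 minus the probe's mean over the 4 DMSO arrays; colours are genes and symbols the probes of a gene. On the GW4064 arrays 4 probes (Cyp4a12a, Cyp4a12b, 1 of Cyp4a31 and 1 of Cyp4a10) lie above every DMSO array, with mean rises of 0.86 to 0.94, while the other 4 overlap the DMSO arrays and, within DMSO, are lowest in replicate 3. Among those other 4, the Cyp4a31 probe A_55_P2024033 was well above background on only 4 of the 8 arrays.

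Outside these organelles, Plin2, the coat protein of lipid droplets, had levels of 4.69, 4.77, 4.83 and 4.74 with DMSO and 5.08, 4.96, 5.08 and 4.99 with GW4064. The groups were apart, with all GW4064 arrays the higher. It rose by 0.27 ± 0.05, 1.21-fold (adjusted p = 0.00483), with 0.29 on slide 1 and 0.25 on slide 2. Acsl1, the synthetase that activates long-chain acids, had levels of 2.06, 2.23, 2.08 and 2.16 with DMSO and 1.99, 1.83, 1.94 and 1.95 with GW4064. The groups did not overlap, and it fell by 0.21 ± 0.05, 1.16-fold (adjusted p = 0.0263), with -0.24 on slide 1 and -0.18 on slide 2. Its second probe had -0.14 ± 0.07 and did not pass. The Acsl1 call ended without DMSO replicate 2 or 4 or GW4064 replicate 2 or 3 (highest adjusted p = 0.0707), with the mean of its probes (0.0639), with median centring (0.0646) and with no filter on dim probes (0.0560). Angptl4, a secreted inhibitor of lipoprotein lipase and a sensitive PPAR target, had -0.16 ± 0.07 (adjusted p = 0.127) and overlapping groups.

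Fabp1, the liver-type carrier of fatty acids, was near the detection limit. Its levels were -7.78, -8.09, -8.09 and -8.08 with DMSO and -5.37, -5.95, -6.16 and -6.22 with GW4064. All GW4064 arrays lay above all DMSO arrays, but 0 of 4 DMSO arrays and 1 of 4 GW4064 arrays, replicate 1, had the probe well above background, so it was not tested with the others. No fold is given, because 3 of the 4 GW4064 values were not well above background either. Its promoter window, chr6:71199629-71199878, forward strand, was chosen for display after the values were seen. It holds 2 half-sites, as does the window of Ucp3 (149 and 44 bases before the start), a member that did not pass. Both sites of Fabp1, in capitals as TGACCT, lie on the strand opposite the gene, the nearest 9 bases and the farther 67 bases before the start.
Fabp1: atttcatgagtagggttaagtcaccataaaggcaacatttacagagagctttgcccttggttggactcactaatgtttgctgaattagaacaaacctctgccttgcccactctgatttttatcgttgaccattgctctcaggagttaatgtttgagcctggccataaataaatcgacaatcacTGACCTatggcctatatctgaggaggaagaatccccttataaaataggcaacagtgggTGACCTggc

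The rest of the pathway was followed through 91 genes that were not members, of which 79 were tested, 14 higher and 7 lower with GW4064, where 11.8% and 8.95% of all genes were. The counts by role that follow are small and are read against the same shares. Of the 11 receptors and cofactors 0 rose and 3 fell. Ppara, which encodes PPAR-alpha, had levels of 0.13, 0.19, 0.02 and 0.13 with DMSO and 0.16, 0.15, -0.08 and 0.17 with GW4064 and a log2 fold change of -0.02 ± 0.07 (adjusted p = 0.854). Those groups overlapped. Ppargc1a, the coactivator PGC-1alpha that drives oxidative genes, had levels of 1.15, 1.21, 1.24 and 1.27 with DMSO and 0.57, 0.77, 0.36 and 0.62 with GW4064, and fell by 0.63 ± 0.08, 1.55-fold (adjusted p = 0.00118). The fat-cell receptor Pparg fell by 0.20 ± 0.04. Nr1h4, the gene of FXR itself, fell by 0.45 ± 0.05. The partner gene Rxra had 0.17 ± 0.08 and did not pass.

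Of 16 other peroxisomal genes tested, 4 rose and 0 fell. They were Acox2, an oxidase of branched chains and bile acid intermediates (0.42 ± 0.09), the hydrolase Nudt19 (0.30 ± 0.06), the division factor Pex11g (0.24 ± 0.05) and the racemase Amacr (0.22 ± 0.05). Of 14 genes listed as other mitochondrial ones 3 rose, Acad10 (0.33 ± 0.07), Eci3 (0.30 ± 0.05) and Acad12 (0.22 ± 0.04), and 1 fell, the hydratase Echs1 (-0.15 ± 0.04). Eci3 was counted there by the list, although its product is a peroxisomal isomerase related to Eci2. Of 11 tested genes of uptake and activation only the synthetase Acsl4 passed, with a fall of 0.39 ± 0.05. The acyl-CoA binding protein Dbi had 0.22 ± 0.07, and the fatty acid binding proteins Fabp3 and Fabp5 had 0.32 ± 0.11 and 0.19 ± 0.08.

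Of 3 tested ketone body genes, Bdh1, a dehydrogenase of ketone bodies, fell by 0.43 ± 0.07 and 2 did not pass, among them Oxct1 (-0.01 ± 0.07). Besides the 2 Cyp4a12 genes, the epoxide hydrolase Ephx2 rose (0.21 ± 0.04) among 8 tested omega-oxidation genes, of which 0 fell; the aldehyde dehydrogenase Aldh3a2 had 0.15 ± 0.06. Of 16 tested genes among other PPAR-alpha targets and lipolysis, 4 rose and 1 fell. The hormone gene Fgf21 had levels of -4.95, -4.84, -4.31 and -4.87 with DMSO and -3.38, -3.34, -3.02 and -3.37 with GW4064, and rose 2.76-fold (1.46 ± 0.15, adjusted p = 0.000312). Vnn1, a pantetheinase, rose 2.53-fold (1.34 ± 0.10), the lipase Mgll 1.40-fold (0.48 ± 0.06), and the CoA carrier Slc25a42 1.20-fold (0.26 ± 0.07). Txnip fell by 0.20 ± 0.04.

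**Figure D4:**
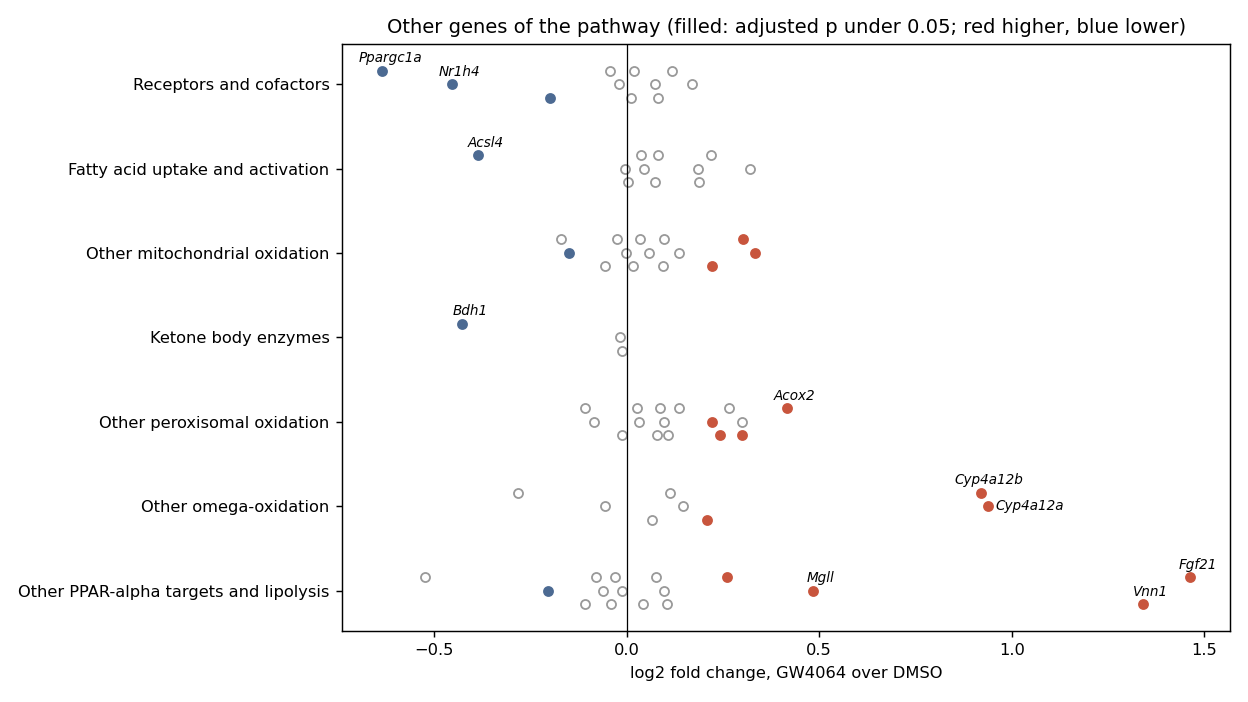
Log2 fold change with GW4064 over DMSO for the 79 tested pathway genes that were not members, one point per gene, by role; filled points passed an adjusted p of 0.05, and the called genes farthest from 0 are named. Eci3, whose product is peroxisomal, is plotted with the mitochondrial genes. Fgf21 and Vnn1 are the farthest to the right at 1.46 and 1.34, and the 3 called receptors and cofactors all lie to the left of 0.

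All 10 called members had the same direction on both slides, which follows from their groups not overlapping and is no separate check. Fitted alone, slide 1 called 6.67% of all genes and slide 2 called 1.52%. Acaa1b, Pex11a, Plin2, Acaa1a and Cyp4b1 passed with any single array left out, and the other 5 did not. With normexp background correction as planned, 0 members and 120 genes in all passed. Local background exceeded the spot signal by over 20 at 6 spots of DMSO replicate 3 and 1 of DMSO replicate 4, and with the array's median background at those spots 6 members passed as higher and 2 as lower. Pdk4 (adjusted p = 0.0918) and Hadhb (0.156) did not pass under that setting, which was chosen after seeing the data.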

How the data were processed

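The scanner files hold spot intensity, background-subtracted by the authors' scanner software, which the file headers give as Feature Extraction 10.7.3.1 (limma appears in the submitters' processing notes). The authors' deposited table of log2 values had a median of 6.598 in every column. Each of its sorted columns was within 0.00875 of the mean of the sorted columns. The method that made it so is not given in the sources used here. The deposited table served as an alternative. Out of 44397 spots an array, 1377 control spots and 98 to 174 outlier spots were not used. Spots were averaged per probe, and the array's 75th percentile was subtracted. Of 39429 probes, 27234 (69.1%) were named by accession through the RefSeq gene table of GRCm38.p6; the headers name another build, so no probe positions are given. Probes well above background on at least 4 of 8 arrays were kept, and the brightest stood for its gene. The comparison used limma 3.58.1 (lmFit, eBayes, Benjamini-Hochberg; R 4.3.3), tested on simulated data. The number of arrays limits the precision.

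The members, lists and tests were chosen with earlier results of these data known. Arrays are shown for members past the threshold, members with a fold of at least 1.3, and Cpt1a, Pdk4, Acadm, Ehhadh, Cyp4a10, Cyp4a14 and Fabp1; of the pathway list, the text names up to 4 genes a role with the smallest p, with Ppara; some values that this rule takes are not reported here. Slc25a42 was named after its values were seen. Promoters are from RefSeq. Normexp (offset 50) used each spot's median signal, where the plan said only its signal. Other alternatives were quantile normalization, median centring, a filter on all 8 arrays or none, a gene's probes averaged or tested singly, replicate and slide blocks, each slide alone, array weights, a trended robust prior, the deposited table and each array left out. Slide and scan split the arrays alike, so the scan block was not run separately.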

Additional observations from a re-analysis of the deposited data

Results flagged for a closer look

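Of 64 groups of 4 arrays examined (32 tested members in 2 groups), 2 held an array far from the other 3, which is 3.12% where chance gives about 5%. Cyp4b1 in GW4064 replicate 4 was at 0.55, while the other 3 GW4064 arrays lay between 0.16 and 0.20. Eci1 in DMSO replicate 4 was at 3.57, and the other 3 DMSO arrays lay between 3.46 and 3.48.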

How the results depend on the processing

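Of the 10 called members, only Hadhb took the other sign under any setting run (normexp as planned, 0.0034). Genes passing as higher and lower numbered 80 and 40 with normexp, 607 and 359 on slide 1 alone, 168 and 52 on slide 2 alone, and 1187 to 1636 and 889 to 1210 with 1 array left out, against 1711 and 1295. Members higher numbered 0 with normexp, 1 on slide 1, 0 on slide 2 and 4 to 6 with 1 array left out. Members lower numbered 0 with normexp, 1 with no filter on dim probes, 1 on slide 1, 0 on slide 2, 5 with array weights, 5 with the trended robust prior and 1 to 4 with 1 array left out. On the values deposited by the authors, 6 members were higher and 3 lower.

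Of members that did not pass, normexp as planned gave the other sign for Acaa2 (0.075), Acadl (0.022), Angptl4 (0.0052), Crat (-0.34), Eci2 (0.063), Etfa (0.051), Etfdh (0.15) and Ucp3 (0.027), and with the median background at the affected spots Cpt1a (-0.0065) and Etfdh (0.024) turned. Cpt1a also turned with median centring (-0.0032). Cyp4a10 turned with the mean of its probes (0.14), which holds the probe that rose. On slide 2 alone the sign turned for Cpt1a (-0.082), Cyp4a10 (0.0057), Decr2 (-0.029) and Eci2 (0.012). With 1 array left out, log2 fold changes ran from -0.015 to 0.035 for Cpt1a, -0.028 to 0.021 for Eci2, -0.051 to 0.018 for Etfdh and -0.037 to 0.028 for Ucp3. Beyond the spots named for normexp and the smaller number of arrays, the cause was not tested.

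The labels do not say whether the shared replicate numbers pair the samples. Deviations from the group means correlated between same-numbered samples at -0.13, -0.029, 0.19 and -0.022. Between differently numbered samples they correlated at -0.20 to 0.20. These few values show no clear pairing but cannot exclude it. With the replicate number as a block 5 members were higher and 2 lower (1342 and 980 genes), Acaa1a, Acsl1, Hadhb and Pdk4 missed the threshold and Acadm passed (adjusted p = 0.0477 in limma). Levels below the lowest signal well above background limit what can be said of Cyp4a14 and Fabp1.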

Other observations

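DMSO replicate 3 was the lowest of its group for 12 of 32 tested members and GW4064 replicate 3 for 13 of 32, where the other arrays were lowest for 6 to 8. Both arrays carry replicate number 3 and were on slide 2, whose other 2 arrays were lowest for 6 and 7 members.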
